A study of Mus musculus with 8 samples.

Results

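The genes Cx3cl1, Olfr1052, Gal3st3 and Rem2 were examined because their signal was high with a first short hairpin RNA (shRNA1) and not with a second (shRNA2). They are 4 of the 31660 gene names on the array and are measured by 5 of its 39429 probes, 2 of them for Olfr1052. The members were picked for that pattern, so their values with the hairpins are given as a description and no test of them is reported. The values that chose them were the differences of shRNA1 from shRNA2 and of each hairpin from the control virus.

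The cells were early erythroid progenitors of C57BL/6 mice, enriched from E14.5 fetal liver by removing lineage, Sca-1, CD16/32, CD41 and CD34 positive cells and then sorting c-kit positive cells with low CD71. They were infected with a virus and cultured for 3 days. The 4 groups of 2 arrays each were shRNA1 with DEX, shRNA2 with DEX, control virus with DEX and control virus without DEX; DEX stands for dexamethasone, a synthetic glucocorticoid. Both hairpins target the same RNA-binding protein, which the labels leave unnamed; that it is Zfp36l2 is known from the published study of this design. No hairpin was given without DEX, and the labels do not say whether replicates were separate cultures or animals, so a p-value reflects only how these arrays scatter, part of which may be technical. In such bulk RNA, fewer cells of a type and less RNA per cell cannot be told apart.

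The genes belong to unrelated families. Cx3cl1 (fractalkine) is a chemokine made as a membrane-anchored protein on neurons and endothelium, released by the sheddases ADAM10 and ADAM17 and bound by the receptor CX3CR1. Olfr1052 is one of the large family of odorant receptors, which signal through a G protein in olfactory neurons. Gal3st3 is a Golgi sulfotransferase that adds sulfate to galactose at the ends of glycoprotein sugar chains. Rem2 is a small GTPase of the RGK family (Rad, Gem and Kir), whose members bind calcium channel beta subunits and hold back voltage-gated calcium currents. A short hairpin RNA is cut to a small interfering RNA that guides Argonaute proteins to matching transcripts, and each hairpin can also pair with transcripts other than its target. The hairpin sequences were not used here, and an off-target effect was not tested.

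The probes are shown because every value below rests on one 60-base oligonucleotide, and because the pair for Olfr1052 overlaps yet gave different readings. Positions are those of the files (mouse build mm9, plus strand), and exon or untranslated region is not stated, as the annotation at hand is of another build. The first Olfr1052 probe lies at chr2:86138819-86138878 and the second at chr2:86138854-86138913; capitals mark the 25 bases they share.
Olfr1052 probe 1: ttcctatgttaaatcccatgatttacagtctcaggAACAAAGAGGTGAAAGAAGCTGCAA
Olfr1052 probe 2: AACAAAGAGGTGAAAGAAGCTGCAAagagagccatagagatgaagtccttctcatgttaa
For the other genes the last 30 bases of the probe are given, at chr8:97306215-97306244 for Cx3cl1, chr19:5308378-5308407 for Gal3st3 and chr14:55098889-55098918 for Rem2. Capitals mark 12 bases of a run of the triplet ACT in the Gal3st3 probe, which goes on for another triplet in lower case.
Cx3cl1: tgaggaggactttaaaagttgttgatcctt
Gal3st3: tgtttgACTACTACTACTacttcttcttct
Rem2: aaagtgctttgtagcctcctggatggagct
Apart from the Olfr1052 pair, no pair of these probes shared a run longer than 6 bases on the same strand or 7 on the opposite strand. The repeat ACTACTACTACT stood in 1 of 39429 probes, that of Gal3st3. The G and C content was 45% for Cx3cl1 and Rem2, 38.3% and 40% for the Olfr1052 probes and 36.7% for Gal3st3, between the 5th percentile (35%) and the 95th (55%) of all probes.

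The arrays were scanned in 1 colour, and 1 slide held replicate 1 of every group and the other slide replicate 2. The 75th percentile of the signal was between 476 and 1003 on slide 1 and between 1439 and 2061 on slide 2. On each slide both hairpin arrays (476 and 522 on slide 1, 1439 and 1665 on slide 2) lay below the control arrays in this percentile. Levels below are log2 signals minus this percentile of the array, and 58.98% to 62.56% of probes were well above background on an array. Zfp36l2 lay at 4.09 and 3.92 with shRNA1, 4.12 and 3.70 with shRNA2, 5.55 and 5.42 in control with DEX, and 3.49 and 3.85 in control without DEX. The hairpins thus differed by 0.09 in their target's level, and it was lower than in control with DEX by 1.48 (shRNA1) and 1.58 (shRNA2; SE 0.31); limma did not call it (adjusted p = 0.923 and 1). All 20 erythroid marker names examined, led by Hba-a1, Hbb-bt and Ahsp, were well above background on both arrays of every group; Epb42 and Epb4.2 among them are names of one gene.

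Cx3cl1 was well above background on both shRNA1 arrays, on neither shRNA2 array, on neither control array with DEX and on both control arrays without DEX. The scanner software also marked its signal as positive and significant on both arrays of every group. Its level was -3.58 and -3.30 with shRNA1, -6.64 and -6.39 with shRNA2, -6.65 and -6.58 in control with DEX, and -5.68 and -4.87 in control without DEX. The shRNA1 arrays were the highest of all 8, the control arrays without DEX came next, and the other 4 arrays overlapped. As deposited, the signal was 39.8 and 146 with shRNA1, against 9.61 and 21.6 in control with DEX, so all of these values are low on the scale of the arrays. The difference with shRNA1 was 3.18 (SE 0.36, with 3.07 and 3.28 on the slides). Between shRNA2 and control with DEX, neither well above background, the fitted difference was 0.10, and no direction is read from it. Where a group is not well above background on any array, its level is only an upper bound; against the lowest signal called well above background on the same arrays, or the probe's own where higher, Cx3cl1 was at least 7.50-fold higher with shRNA1 than in control with DEX and at least 5.49-fold higher than with shRNA2. For all members the fitted difference rests on values near background on the lower side, and the bound holds only for the signal as processed here. Against control with DEX, normexp background correction gave log2 differences with shRNA1 of 1.39 to 1.68, and the authors' values 0.93 to 1.27. For each member these are smaller than its bound, and so were the differences from shRNA2 with both alternatives.

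Olfr1052 probe 1 was well above background on the shRNA1 arrays and on none of the other 6. Its level was -4.27 and -4.25 with shRNA1, -7.41 and -8.60 with shRNA2, -8.31 and -8.56 in control with DEX, and -8.23 and -8.55 in control without DEX. On all 6 arrays outside shRNA1 the scanner software had replaced the signal by a surrogate for a spot at background, so these 6 values have no order. The difference with shRNA1 was 4.18 (SE 0.44; 4.04 and 4.31 on the slides), and the signal was at least 4.24-fold higher than in control with DEX and at least 3.21-fold higher than with shRNA2.

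Olfr1052 probe 2 was not well above background on any array, although it shares 25 bases with probe 1 and names the same transcript. The scanner software marked its signal as positive and significant on both shRNA1 arrays and both control arrays without DEX. The same held for 1 array each of shRNA2 and control with DEX, and surrogates stood in on the second array of these groups. Its level was -6.10 and -8.01 with shRNA1, -5.85 and -8.43 with shRNA2, -6.54 and -8.42 in control with DEX, and -7.25 and -8.09 in control without DEX. All 4 groups overlapped, and the arrays of the first slide were the higher ones in each group. The difference with shRNA1 was 0.43 (SE 1.11; 0.44 and 0.41 on the slides). The probes of this gene therefore disagree, and the high reading with shRNA1 rests on probe 1 alone.

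Gal3st3 was likewise well above background on the shRNA1 arrays only. Its level was -3.48 and -3.42 with shRNA1, -7.39 and -6.64 with shRNA2, -8.33 and -7.72 in control with DEX, and -8.25 and -8.64 in control without DEX. Surrogates stood in for the signal on the first shRNA2 array, the first control array with DEX and both control arrays without DEX. The difference with shRNA1 was 4.58 (SE 0.39; 4.85 and 4.31 on the slides), and the bounds were at least 7.46-fold against control with DEX and at least 5.66-fold against shRNA2. The fitted difference of shRNA2 from control with DEX was 1.01 (SE 0.39, with 0.95 and 1.08 on the slides). Neither group was well above background on any array, so no direction is read from it.

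Rem2 was the remaining gene seen well above background only with shRNA1. Its level was -3.84 and -3.12 with shRNA1, -7.53 and -7.15 with shRNA2, -7.00 and -6.60 in control with DEX, and -6.41 and -6.73 in control without DEX. The shRNA1 arrays stood above the other 6, where no group was well above background. A surrogate stood in for the signal on the first shRNA2 array. On the second shRNA2 array and all control arrays the signal was marked as positive and significant. The difference with shRNA1 was 3.32 (SE 0.38; 3.16 and 3.48 on the slides), with bounds of at least 7.27-fold against control with DEX and at least 5.52-fold against shRNA2. Between shRNA2 and control with DEX the fitted difference was -0.54. No direction is read from it, since neither group was well above background on any array.

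**Figure D1:**
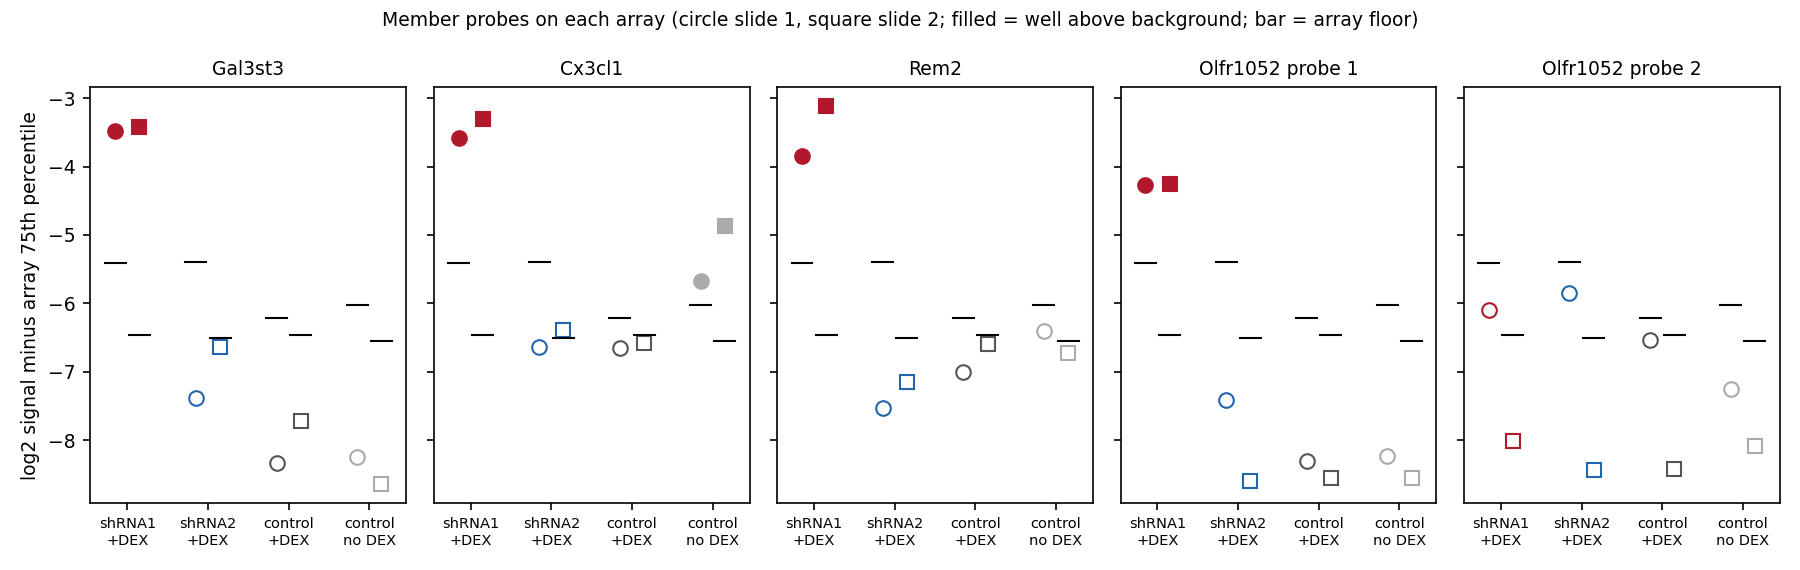
Level of each member probe on each array (vertical axis, log2 signal minus the 75th percentile of the array) by group, with circles for slide 1, squares for slide 2, filled symbols for spots well above background and black bars for the lowest signal called well above background on that array. The shRNA1 symbols are filled and above all others in 4 panels, Cx3cl1 is also filled without DEX, and Olfr1052 probe 2 has no filled symbol.

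For all 4 genes, taking probe 1 for Olfr1052, the arrays with shRNA1 did not overlap those of control with DEX; among all genes tested 18% were higher with shRNA1 without overlap. The same 4 did not overlap between shRNA1 and shRNA2, where 12.3% of all genes were higher without overlap. Since the genes were chosen on these contrasts, nothing is read from those counts. Limma called 0 of 19133 genes for shRNA1 against control (0%; 400 at an unadjusted p under 0.05), 0 for shRNA2 against control (0%; 240) and 0 for shRNA1 against shRNA2 (0%; 456). With the slide as a block it called 0, 1 (0.00523%) and 0 in that order, none of them a member (3409, 1090 and 2105 unadjusted). Every member passed the filter on low values through its shRNA1 arrays, and Cx3cl1 also through control without DEX, so a difference was built into the choice.

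**Figure D2:**
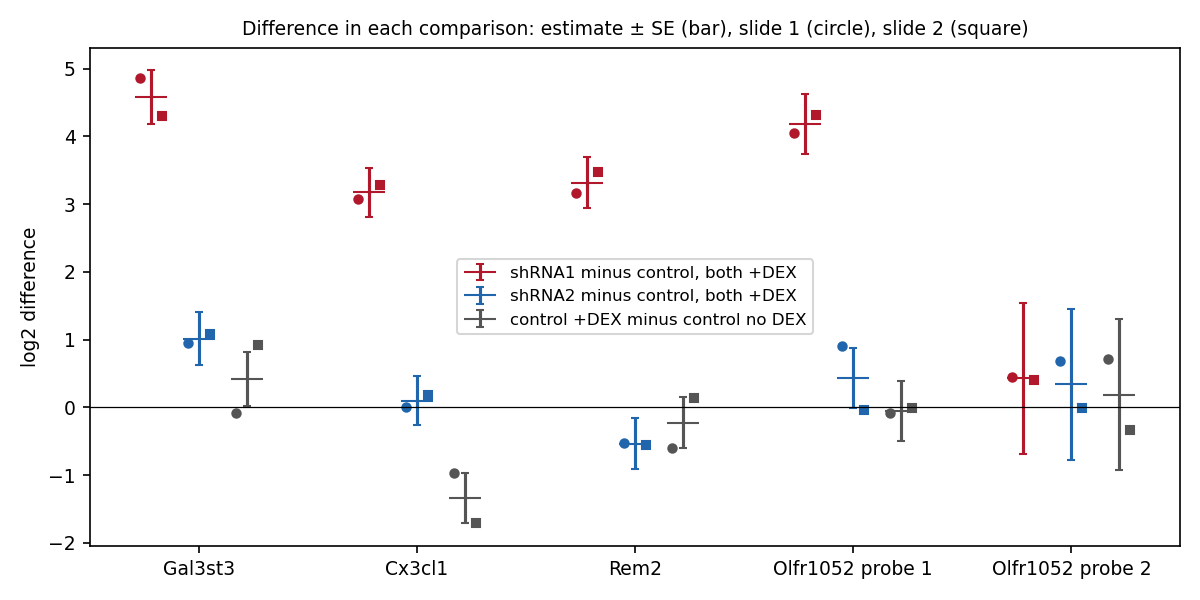
Log2 difference of each member probe in 3 comparisons, with the estimate and its SE (bars) and the difference on slide 1 (circles) and slide 2 (squares). With shRNA1 the slides lie between 3.07 and 4.85 for 4 probes, with Olfr1052 probe 2 at 0.44 and 0.41, and the shRNA2 values compare groups that were not well above background.

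As a description of the array, the probes with the same kind of reading were counted. Of 39429 probes, 32 (0.0812%) were well above background on both shRNA1 arrays and on none of the other 6; Gal3st3, Rem2 and Olfr1052 probe 1 are 3 of them. The same count was 12 (0.0304%) for shRNA2, 25 (0.0634%) for control with DEX and 53 (0.134%) for control without DEX. The members were chosen on this pattern, so the counts say nothing about them. Ranked by shRNA1 minus shRNA2, also a contrast that chose them and one where the shRNA2 side was not well above background, Rem2 was in place 4 (3.86), Olfr1052 in place 5 (3.74), Gal3st3 in place 7 (3.57) and Cx3cl1 in place 16 (3.08). The others of the first 10 were a probe with no gene name (4.23), Serinc2 (4.09), a serine incorporator family gene, Fhl1 (3.87), a LIM domain gene, an unnamed Ensembl transcript (3.58), Cacna1g (3.43), a T-type calcium channel, Rnu3b1 (3.36), a small nucleolar RNA, and Pla2g2d (3.32), a secreted phospholipase.

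The slides agreed to different degrees among these genes. The unnamed probe in place 1 was at -4.51 and -2.44 with shRNA1, against -6.72 and -8.70 with shRNA2. Fhl1 was at -4.97 and -2.89 with shRNA1, against -7.37 and -8.24 with shRNA2. Serinc2, in place 2, was at -0.51 and -1.58 with shRNA1, against -4.08 and -6.18 with shRNA2. Between the hairpins Cx3cl1 differed by 3.06 and 3.09 on the slides, Rem2 by 3.69 and 4.03, Gal3st3 by 3.91 and 3.22, and Olfr1052 by 3.13 and 4.35. The members were chosen on this contrast, so nothing is read from how well their slides agree.

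**Figure D3:**
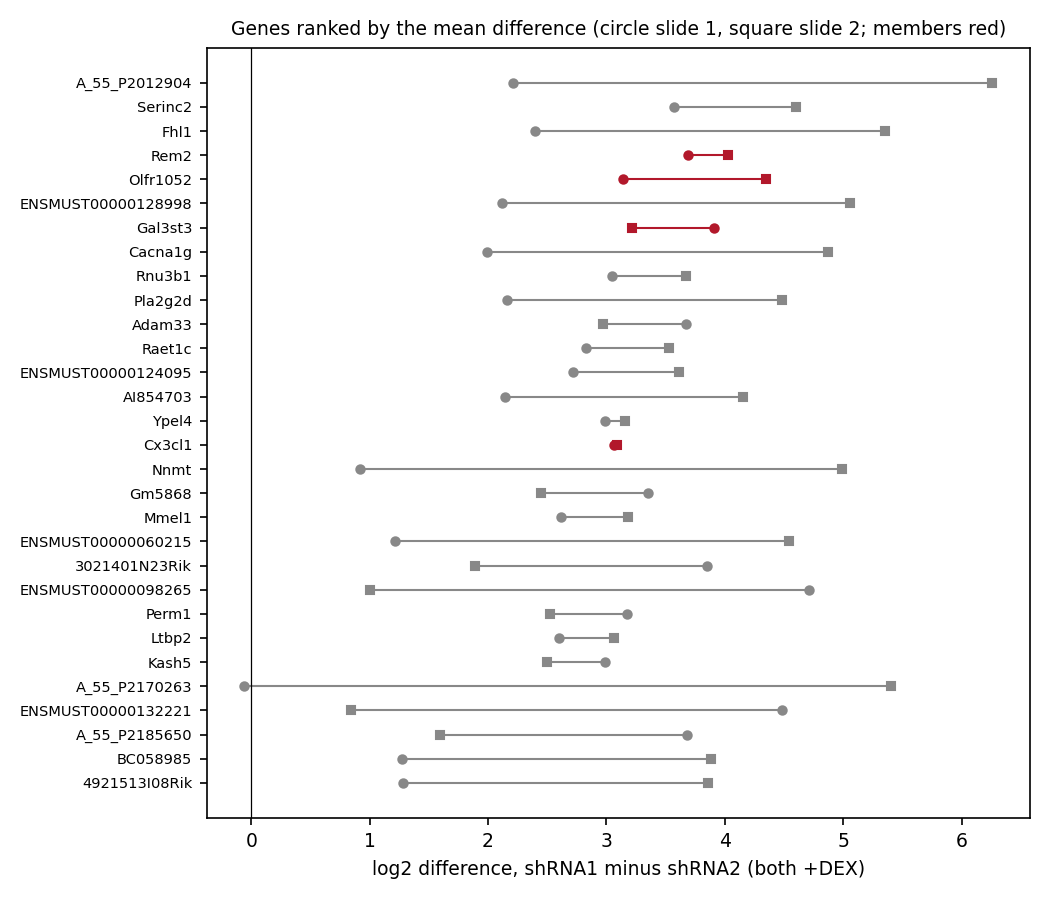
The 30 genes with the highest shRNA1 minus shRNA2 difference (horizontal axis, log2), with slide 1 as circles, slide 2 as squares and members in red. Rem2, Olfr1052, Gal3st3 and Cx3cl1 lie between 3.06 and 4.35 on both slides.

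DEX itself was compared in cells with the control virus; its arrays with DEX also entered the choice of members, so it is only partly separate from it. The Cx3cl1 difference was -1.34 (SE 0.36; -0.97 and -1.71 on the slides), with a bound of at least 2.10-fold lower since it was not well above background with DEX; normexp background correction gave -0.45 and the authors' values -0.47, smaller than that bound. Its arrays did not overlap, as for 16.5% of all genes lower with DEX, and limma did not call it (adjusted p = 0.917, or 0.113 with the slide as a block). Gal3st3 was at 0.42, Rem2 at -0.23, and the Olfr1052 probes at -0.05 and 0.19, with overlapping arrays and no group well above background, so no direction is read from them. Limma called 0 genes for DEX (594 at an unadjusted p under 0.05) and 44 (0.23%) with the block, none of them a member. Ordered by level, Cx3cl1 was thus highest with shRNA1, then without DEX, with shRNA2 and control with DEX not separable.

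The genes whose levels ran most like each member over the 8 arrays were taken by Pearson correlation, as a description, since the points share slides and scaling. Most member levels outside shRNA1 were not well above background. The correlations therefore rest largely on the shRNA1 arrays, on which the members were chosen. For Gal3st3 they were Mmaa (r = 0.97), a mitochondrial cobalamin gene, Gprc5c (0.97), an orphan receptor, Brd9 (0.96), a bromodomain protein, Tsen54 and Ppp1r9b. Gprc5c was at -2.28 and -2.80 with shRNA1, -4.23 and -4.06 with shRNA2, and -4.61 and -4.25 in control with DEX. For Cx3cl1 they were Drp2 (0.94), Tst (0.94), the mitochondrial sulfurtransferase rhodanese, Card10, Kdm6a, a histone demethylase, and Ppp6r3. Tst was at -0.49 and -0.05 with shRNA1, -1.76 and -1.75 with shRNA2, -1.46 and -1.64 in control with DEX, and -0.81 and -0.66 without DEX. Here shRNA1 was highest and control without DEX next, an order like that of Cx3cl1 because Tst was picked for its correlation with it.

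For Rem2 the most alike genes were Eola1 (r = 0.98), Pde6g (0.95), Olfr12, C5ar2, a complement receptor, and Nudt18. For Olfr1052 probe 1 they were Rc3h2 (0.96), an RNA-binding ubiquitin ligase, Ssc5d, Mmaa, Cep290 and Ppp1r9b. Rc3h2 was at 0.95 and 0.88 with shRNA1, 0.42 and 0.19 with shRNA2, and 0.34 and 0.00 in control with DEX. Except Olfr12 and Nudt18, each on 1 of 2 shRNA2 arrays, these genes were well above background on all 8 arrays. Their differences with shRNA1 (0.22 to 1.89) were smaller than those of the members, which were chosen for large ones. The members' own pairwise correlations lay between 0.78 (Gal3st3 with Cx3cl1) and 0.94 (Gal3st3 with Olfr1052), a consequence of how they were chosen.

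The closest relatives of the members were also examined, with errors from a fit without the filter on dim probes, which 4 of the 10 did not pass. Of the other galactose sulfotransferases, Gal3st1 and Gal3st4 were not well above background on any array, and Gal3st2 was on 1 array of each group (difference with shRNA1 1.00, SE 1.15). Among RGK genes, Rem1 was well above background on 1 array, with shRNA1, and Rrad on 4 of 8. Gem was well above background on all 8 and differed by 0.23 with shRNA1 and 0.59 with shRNA2 (SE 0.61). For the fractalkine system, the receptor Cx3cr1 differed by 0.57 with shRNA1 and 2.15 with shRNA2 (SE 1.11), the second resting on 1 array (-1.59 and -4.46 with shRNA2, against -5.36 and -4.99 in control with DEX), the sheddase Adam10 by 0.25 and -0.30 (SE 0.35), and Adam17 by -0.23 and -0.32 (SE 0.35). Cxcl16, the other membrane-anchored chemokine, differed by -0.36 and -0.75 (SE 0.41). Limma called none of these 10 genes, with or without the block.

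Wider gene lists around the members are set beside all genes tested, for which the median difference was 0.18 with shRNA1 and 0.01 with shRNA2. Of 13 sulfotransferase and sulfate donor genes tested, 8 were higher and 5 lower with shRNA1, with a median of 0.05. Of 16 genes of the fractalkine system 11 were higher and 5 lower (median 0.15), and of 20 RGK partners, calcium channels and adaptors 12 were higher and 8 lower (0.27). Of 9 olfactory signalling genes 6 were higher and 3 lower (0.60), and of 13 small RNA machinery genes 8 were higher and 5 lower (0.17). Over all 12 lists, with 151 genes tested, limma called 0 in each comparison; at an unadjusted p under 0.05 there were 6 for shRNA1 (3.97%, against 2.09% of all genes), 12 for shRNA2 (7.95%, against 1.25%) and 10 for DEX (6.62%, against 3.10%). The block called 0 as well, with 31 for shRNA1 (20.5%, against 17.8%), 18 for shRNA2 (11.9%, against 5.70%) and 30 for DEX (19.9%, against 9.55%). The 12 lists include the cell type and interferon lists below. Without the block, 7 of the 12 genes for shRNA2 were granulocyte markers and 3 were monocyte markers. The sulfotransferase, fractalkine, RGK, olfactory and small RNA lists had 0 for shRNA2. For shRNA1 the fractalkine and olfactory lists had 1 each, and the sulfotransferase, RGK and small RNA lists had 0.

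**Figure D4:**
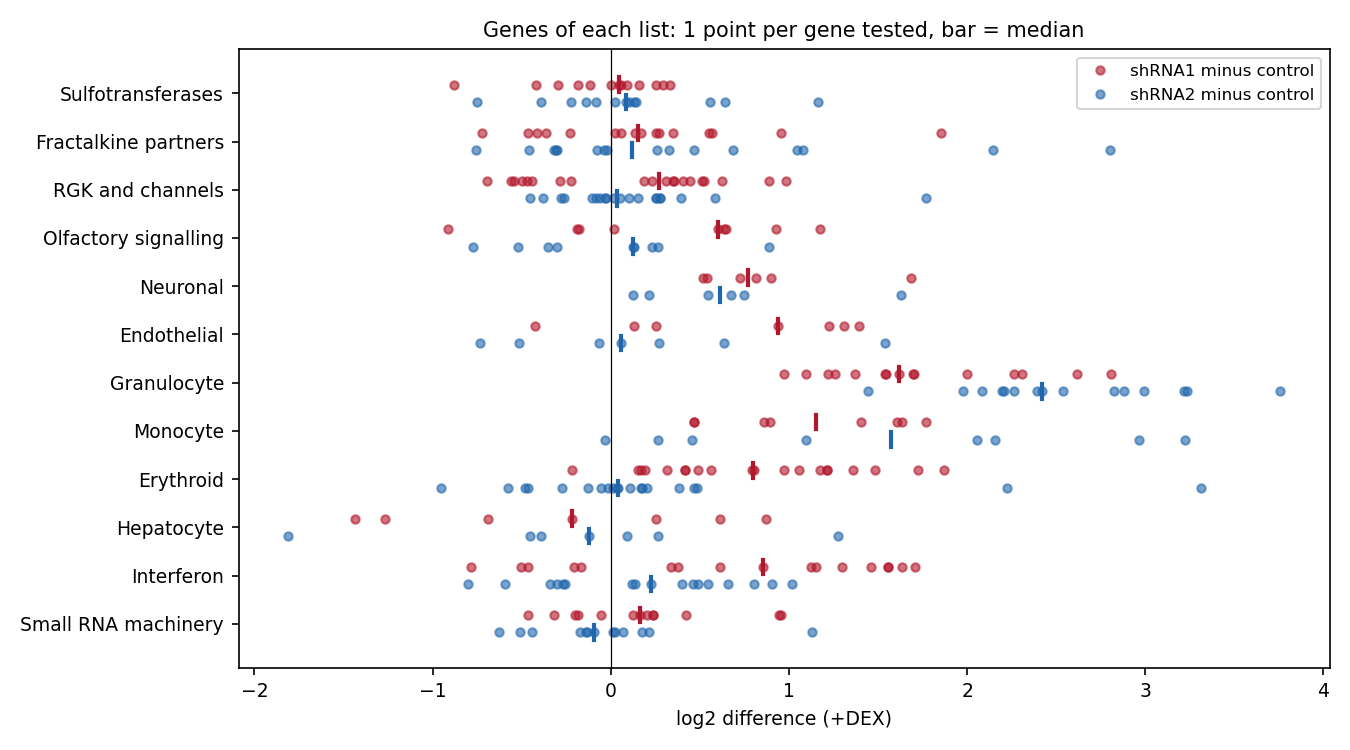
Log2 difference from control, both with DEX, of every tested gene of the 12 lists, with shRNA1 in red and shRNA2 in blue and the median of each list as a bar. Granulocyte markers lie at a median of 1.62 with shRNA1 and 2.42 with shRNA2. With shRNA1 the lists around the members have medians of 0.05 to 0.27, apart from olfactory signalling at 0.60, against 0.18 for all genes. With shRNA2 their medians lie between -0.09 and 0.12, against 0.01 for all genes.

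Levels of markers of other cells and of interferon genes were also set beside control, with none called by limma. Summed signals of monocyte markers with shRNA2, and of interferon genes with each hairpin, overlapped those of control with DEX. The 15 granulocyte markers tested, among them S100a9, Mpo and Ctsg, were all higher with each hairpin (median 1.62 with shRNA1 and 2.42 with shRNA2), with a summed signal, relative to the 75th percentile, of 135 to 146 with shRNA1, 91.0 to 563 with shRNA2, 37.9 to 66.2 in control with DEX and 41.0 to 181 without DEX. For the 8 monocyte markers, with Csf1r, Lyz2 and Clec7a at the highest levels, the medians were 1.15 and 1.57 and the sums were 3.40 to 9.11 with shRNA1, 2.04 to 14.0 with shRNA2, 1.46 to 3.13 in control with DEX and 3.91 to 5.39 without DEX. Their part in the members' values was not tested.

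Cx3cl1 is made by endothelium and neurons, so both marker lists were examined. Of 7 endothelial markers tested, led by Egfl7, Kdr and Vwf, 6 were higher with shRNA1 (median 0.94) and 4 with shRNA2 (0.06), with sums of 25.4 to 44.6 with shRNA1, 23.4 to 30.4 with shRNA2, 24.2 to 32.6 in control with DEX and 21.8 to 35.5 without DEX. On both arrays of a group, 7 were well above background with shRNA1, 5 with shRNA2, 6 in control with DEX and 7 without DEX. Of 6 neuronal markers, led by Snap25, Tubb3 and Syp, all were higher with shRNA1 (0.77) and with shRNA2 (0.61) in the mean of the slides. On slide 2 alone, Elavl3 (-0.34) and Eno2 (-0.02) were lower with shRNA1, and Snap25 and Elavl3 (-0.25 each) with shRNA2. Their sums overlapped, at 7.03 to 46.6 with shRNA1, 4.86 to 47.0 with shRNA2, 5.11 to 17.2 in control with DEX and 5.53 to 12.8 without DEX. The other 10 of the 16 on the list did not pass the filter on low values. The 20 erythroid marker names had medians of 0.80 and 0.04, with 19 and 12 higher, and the 7 hepatocyte markers -0.22 and -0.12. The 17 interferon and double-stranded RNA response genes, led by Stat2, Isg15 and Oasl2, had medians of 0.86 with shRNA1, 12 being higher, and 0.22 with shRNA2, 11 being higher. Their summed signal was 5.81 to 23.9 with shRNA1, 3.62 to 17.5 with shRNA2, 4.03 to 10.3 in control with DEX and 9.34 to 24.0 without DEX, and their part in the members' values was not tested.

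Genes near the members on the chromosome had smaller differences than the members. The members were chosen for large differences, so nothing is read from that contrast. Within 1000 kb of the Gal3st3 probe, 100 genes were tested, 65 higher and 35 lower with shRNA1, at a median of 0.17 and between -0.69 and 1.62. The nearest on each side were Sf3b2, a splicing factor, at -0.28 and Cst6, a cystatin, at -0.15. Around Cx3cl1, 44 genes had a median of 0.05, between -0.75 and 1.86, and its nearest tested neighbours were Arl2bp at -0.05 and 1700121C10Rik at 0.41. The chemokine gene Ccl17, 29.6 kb away, was at 0.27. Around Rem2, 45 genes had a median of 0.04, between -1.45 and 1.54, with Lrp10 at -0.22 and Prmt5, an arginine methyltransferase, at -0.41 next to it. Limma called 0 of these neighbours with shRNA1, with or without the block; at an unadjusted p under 0.05 there were 1, 2 and 1 around the 3 genes, and 16, 5 and 6 with the block, while over all genes the shares were 2.09% and, with the block, 17.8%.

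**Figure D5:**
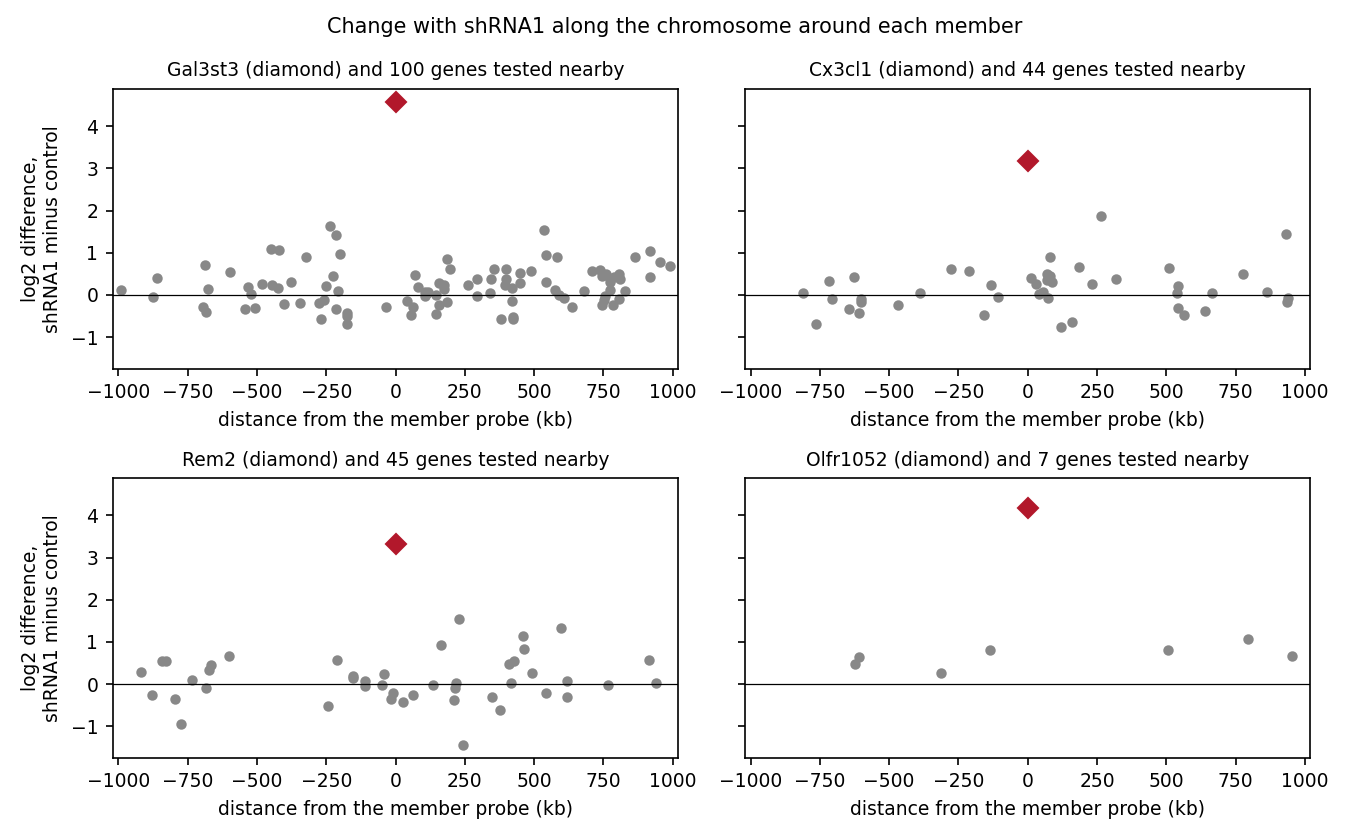
Log2 difference with shRNA1 (vertical axis) of each member (red diamond, probe 1 for Olfr1052) and of the genes tested within 1000 kb (grey), by distance from the member's probe in kb. The members, chosen for large differences, lie at 3.18 to 4.58 and their neighbours between -1.45 and 1.86.

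Olfr1052 stands in a cluster of odorant receptor genes. Within 1000 kb there were 97 other odorant receptor probes, of which 25 were well above background on any array. The 7 genes that passed the filter were all odorant receptors. All were higher with shRNA1, at a median of 0.67 and between 0.25 and 1.07, while all genes tested had a median of 0.18 (62.1% higher). With shRNA2, 5 of the 7 were higher and 2 lower, at a median of 0.27, against 0.01 for all genes. Array median scaling moved the median of all genes with shRNA1 to -0.22, so differences of this size depend on the scaling. With shRNA1 limma called none of the 7 (0 at an unadjusted p under 0.05), and the block also called 0, with 3 unadjusted. The nearest on each side were Olfr1043 at 0.80 and Olfr141 at 0.80. On the whole array, 123 of 1193 odorant receptor probes (10.3%) were well above background on both arrays with shRNA1, against 100 (8.38%) with shRNA2, 113 (9.47%) in control with DEX and 133 (11.1%) without DEX. Only 3 did so on the shRNA1 arrays and no other: Olfr1052 probe 1, Olfr153 and Olfr29-ps1. Olfr153 was at -4.53 and -5.82 with shRNA1, against -6.08 and -5.98 in control with DEX. Olfr29-ps1, a pseudogene, was at -2.70 and -6.19 with shRNA1, against -8.13 and -7.16 in control with DEX.

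The promoters are shown because the genes were high on the same arrays. RefSeq (GRCm38.p6) gave one for 3 of the 4; Gal3st3 had none. The 250 bases before the annotated start are printed, all on the plus strand, with matches to the searched motifs in capitals: chr8:94771930-94772179 for Cx3cl1, chr14:54475850-54476099 for Rem2 and chr2:86297568-86297817 for Olfr1052.
Cx3cl1: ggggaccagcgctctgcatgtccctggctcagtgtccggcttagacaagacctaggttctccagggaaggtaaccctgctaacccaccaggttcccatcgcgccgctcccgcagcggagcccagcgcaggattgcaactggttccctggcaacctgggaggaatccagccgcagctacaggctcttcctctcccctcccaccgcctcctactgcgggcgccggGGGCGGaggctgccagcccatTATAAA
Rem2: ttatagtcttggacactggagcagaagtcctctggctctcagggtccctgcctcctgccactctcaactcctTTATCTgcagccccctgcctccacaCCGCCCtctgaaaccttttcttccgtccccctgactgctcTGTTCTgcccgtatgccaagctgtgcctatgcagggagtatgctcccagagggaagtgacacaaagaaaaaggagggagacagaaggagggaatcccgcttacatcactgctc
Olfr1052: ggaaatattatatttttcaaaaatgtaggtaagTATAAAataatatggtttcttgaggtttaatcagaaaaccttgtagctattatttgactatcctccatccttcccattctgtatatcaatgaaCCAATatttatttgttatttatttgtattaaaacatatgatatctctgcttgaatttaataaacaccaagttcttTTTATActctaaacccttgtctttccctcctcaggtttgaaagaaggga
On both strands, TATAAA matched once in Cx3cl1, directly before the start, and 2 times in Olfr1052, against 13% of 27025 promoters with a match. GGGCGG matched once each in Cx3cl1 and Rem2 (32.9% of promoters), CCAAT once in Olfr1052 (34.5%) and the GATA motif AGATAA once in Rem2 (10.3%). AGAACA, part of the glucocorticoid response element, matched once in Rem2 (16.2%), and TGACG, part of the cyclic AMP response element (17.9%), had no match in these windows. No searched motif was found in all 3 promoters.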

How the data were processed

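The authors deposited 1-colour Agilent Feature Extraction files (version 10.1.1.1, per the file headers), whose intensity is a linear processed signal with surrogates at background and marks per spot. The deposited table of log2 values, made by the authors in steps not given in the sources used here, served as an alternative; the submitters' processing notes name limma. Of 44397 spots, 1377 controls and spots with outlier marks were left out. The intensity was taken as log2 minus the array's 75th percentile. A probe was tested if well above background on both arrays of a group, and the probe with the highest mean stood for a gene (19133 genes; 5073 have several probes); 441 of 39429 probes had no usable spot on some array. Names of 26581 probes came from RefSeq accessions. All 8 arrays entered each limma fit (lmFit and eBayes, limma 3.58.1, R 4.3.3), with Benjamini-Hochberg adjustment at 0.05. There was 1 fit on the genes tested and 1 without the filter for probes and family genes that may not pass it. The code was run on simulated data with the same small spread for every gene and no slide effect. That run therefore does not show how the fit performs on these arrays. Plots used matplotlib 3.10.9. The number of arrays limits the precision.

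The members and gene lists were chosen with earlier results of these data known. Named genes are the members, the 5 most correlated genes with a symbol, the first 10 by shRNA1 minus shRNA2, fixed family genes, the 3 list markers with the highest mean, and the nearest tested neighbours. Alternatives were array median scaling, quantile normalization, normexp (offset 50, with aberrant local backgrounds replaced), the authors' values, no filter on dim probes, the mean of a gene's probes, a block for the slide, and each array left out in turn. Same-numbered arrays shared a slide, per the file names, and their deviations from the group means correlated between 0.43 and 0.86 over 6 pairs of groups.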

Additional observations from a re-analysis of the deposited data

How the results depend on the processing

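With shRNA1 all 4 members stayed above control with DEX, and above shRNA2, in every alternative run. These contrasts on the same arrays chose the members, so their direction could hardly reverse and nothing is read from it. The difference with shRNA1 ran over the alternatives from 1.27 to 4.58 for Gal3st3, 1.13 to 3.18 for Cx3cl1, 1.18 to 3.32 for Rem2 and 0.93 to 4.18 for Olfr1052. Leaving out 1 array gave 4.27 to 4.88, 3.03 to 3.32, 2.96 to 3.68 and 4.05 to 4.30. The smaller values came with normexp (1.39 to 1.68) and the authors' values (0.93 to 1.27); the mean of both probes gave 2.30 for Olfr1052. Their cause was not tested. Direction reversed with normexp for Gal3st3 with DEX (-0.0072, against 0.42) and for Rem2 with shRNA2 (0.33, against -0.54), with all these groups not well above background; the cause was not tested. Values near 0 there changed sign too: Cx3cl1 with shRNA2 was 0.10, but -0.15 with array median scaling and -0.05 with quantile normalization. Olfr1052 with shRNA2 was 0.43, but -0.0072 with the authors' values. Gal3st3 with shRNA2 was 1.01 and kept its sign, between 0.21 and 1.01 over the alternatives. Olfr1052 with DEX was -0.05, but 0.05 with array median scaling, 0.12 with normexp, 0.10 with the authors' values and 0.07 with the mean of its probes. Cx3cl1 with DEX was -1.34, but -0.45 with normexp and -0.47 with the authors' values. The median of all genes with shRNA1 was 0.18 as given, -0.22 with array median scaling and -0.00 with quantile normalization, and for shRNA2 0.01, -0.23 and -0.05. With the replicate block, which is the slide, the count of genes called was 44 for DEX and 1 for shRNA2, against 0 and 0 without it, and remained 0 for shRNA1 and for shRNA1 against shRNA2; the other alternatives gave 0 in every comparison, as did leaving out each array (0 to 0) and as did the lists. Levels not well above background are bounds, so order among those arrays is not known.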
